A study of Mus musculus with 12 samples.

Results

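Mitosis genes were followed in the sensory ganglia of stressed newborn mice. They are 40 genes, chosen by name for their parts in cell division and with earlier results of these data known. All 40 were among the 15322 genes measured. The series asked which transcripts differ in immature dorsal root ganglia, the clusters of sensory nerve cell bodies beside the spinal cord, after early life stress. Lumbar L3 to L5 ganglia were taken on postnatal day 9 from wild-type (WT) pups. The stress group had been raised with their dam under neonatal limited bedding from postnatal day 2 to postnatal day 9, and the control group under a control bedding protocol over the same days. Each treatment had 3 male and 3 female libraries, 12 in all. The labels give no litter, strain or pooling of animals, so the p-values measure only the spread between these libraries.

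A dividing cell switches on cyclins and kinases that start mitosis, packs its chromosomes, attaches them to a spindle of microtubules, checks the attachment and then pinches itself apart. The transcripts that encode this machinery peak together late in the cell cycle and are scarce in resting cells, so they are widely read as a mark of dividing cells. Sensory neurons have left the cell cycle before birth, whereas glia, Schwann cells, connective tissue, vessel and blood cells in or near a young ganglion can still divide.

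The promoters of many such genes share short sequence elements. These are printed for members that hold both a match to the letters of a homology region and repeated CCAAT boxes before the start site. RefSeq promoters on GRCm38.p6, running from 250 bases before the start site to 50 bases after it, were used for 35 of the 40 genes; the others are Aurkb, Ccna2, Foxm1, Kif20a and Tpx2. Several elements were searched on both strands. One was the cell cycle genes homology region, TTTGAA, which the MuvB complexes with B-MYB and FOXM1 use. Another was the CCAAT box of the factor NF-Y. The last was E2F, as the form TTCCCGC or the form TTGGCGC. The second form can share bases with a reversed CCAAT box. TTTGAA was present in 26 of the 35 promoters (74.3%), against 11.8% of the promoters of tested genes and 18.1% of all 27025 promoters. At least 1 CCAAT box was present in 25 of 35 (71.4%), against 38.5% of tested genes and 37.9% of all promoters. An E2F form was found in 7 of 35 (20%), against 12% of tested genes and 6.93% of all promoters. A match is a run of letters and not a measured binding site.

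In 6 of the 35, the bases before the start site held TTTGAA and at least 2 CCAAT boxes. The TTTGAA of Ccnb2 (at -167 from the start site) and of Ect2 (at -114) lay before all of their CCAAT boxes. Whether it serves as a homology region there was not tested. Both elements, read on either strand, are in capitals in the stretches of all 6, shown 5′ to 3′ on the gene's strand. These stretches run from 5 bases before the first match to 5 bases after the last or to the start site. They lie at chr10:69352917-69353125 (Cdk1, minus strand), chr9:70421566-70421726 (Ccnb2, minus), chr11:99024202-99024421 (Top2a, minus), chr7:135716467-135716572 (Mki67, minus), chr4:118437344-118437401 (Cdc20, minus) and chr3:27153924-27153997 (Ect2, minus).
Cdk1: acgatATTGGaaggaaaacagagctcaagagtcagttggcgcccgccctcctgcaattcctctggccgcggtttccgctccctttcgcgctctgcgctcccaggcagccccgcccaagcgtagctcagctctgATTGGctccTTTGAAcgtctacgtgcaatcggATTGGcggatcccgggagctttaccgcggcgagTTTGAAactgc
Ccnb2: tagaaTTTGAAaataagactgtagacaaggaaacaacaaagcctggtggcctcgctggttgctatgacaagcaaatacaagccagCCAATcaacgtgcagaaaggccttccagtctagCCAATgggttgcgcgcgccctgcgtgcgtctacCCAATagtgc
Top2a: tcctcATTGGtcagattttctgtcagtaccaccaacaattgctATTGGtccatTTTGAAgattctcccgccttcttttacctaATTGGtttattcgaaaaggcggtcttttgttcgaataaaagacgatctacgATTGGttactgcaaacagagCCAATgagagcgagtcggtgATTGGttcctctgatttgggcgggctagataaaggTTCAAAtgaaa
Mki67: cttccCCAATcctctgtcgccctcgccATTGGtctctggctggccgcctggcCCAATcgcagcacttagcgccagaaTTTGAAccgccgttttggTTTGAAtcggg
Cdc20: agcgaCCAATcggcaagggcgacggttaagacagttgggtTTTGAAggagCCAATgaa
Ect2: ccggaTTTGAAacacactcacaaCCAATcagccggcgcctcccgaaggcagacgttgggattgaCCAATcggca

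Across the 12 libraries the files show sums of 21252841 to 22394913 normalized counts, since the authors scaled the libraries to a common level. Counts over the measured genes before scaling were roughly estimated from the spacing of low values. They came to 16500000 to 27000000 in 11 libraries and could not be read in stress female replicate 2. The low values followed that spacing only in part, so the estimate is approximate. Genes were tested where 3 or more libraries reached a normalized count of 10, which left 15194, and all 40 mitosis genes were above 10 in every library. Their lowest single value was 30.9 and their means over 12 libraries ran from 57.6 to 975 (median 157, against 486 for all tested genes). The ganglion label held: all 12 sensory neuron markers were measured. Their summed level was 345258 to 376846 normalized counts in stress and 402060 to 424272 in control libraries. The neurofilament Nefl, at a mean of 128298 in stress and 170260 in control libraries, carried a large part of that sum. Log2 fold changes of stress over control were positive for 6 of the 12 markers and negative for 6, with a median of 0.01. Fewer cells of a type and less RNA per cell cannot be told apart in such bulk samples.

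Mitosis transcripts were more abundant after limited bedding. Over both sexes 29 of the 40 genes rose, none fell and 11 did not pass the test (limma, Benjamini-Hochberg adjusted p under 0.05 over all 15194 genes). Of all tested genes 12.8% rose and 13.4% fell. The 40 were chosen with earlier results of these data known, so the counts describe the list and are not an independent test of it. The log2 fold change of stress over control was positive for all 40 genes, with a median of 0.38 (1.30-fold) and a range of 0.07 to 0.75, against a median of 0.01 over all tested genes. In 15 of the 40 every stress library lay above every control library, which held for 5.21% of tested genes, and in none was every stress library below (5.73% of tested genes). The changes were small: the largest was 1.68-fold, and 6 genes were above 1.5-fold. Red blood cell markers also rose in the stress libraries, and with their score as a covariate 2 of the 40 mitosis genes passed, as described after the gene groups. The authors' deposited table lists the same 29 genes at an adjusted p under 0.05, all higher in stress, where it lists 13.2% of its genes as higher and 13.6% as lower.

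**Figure D1:**
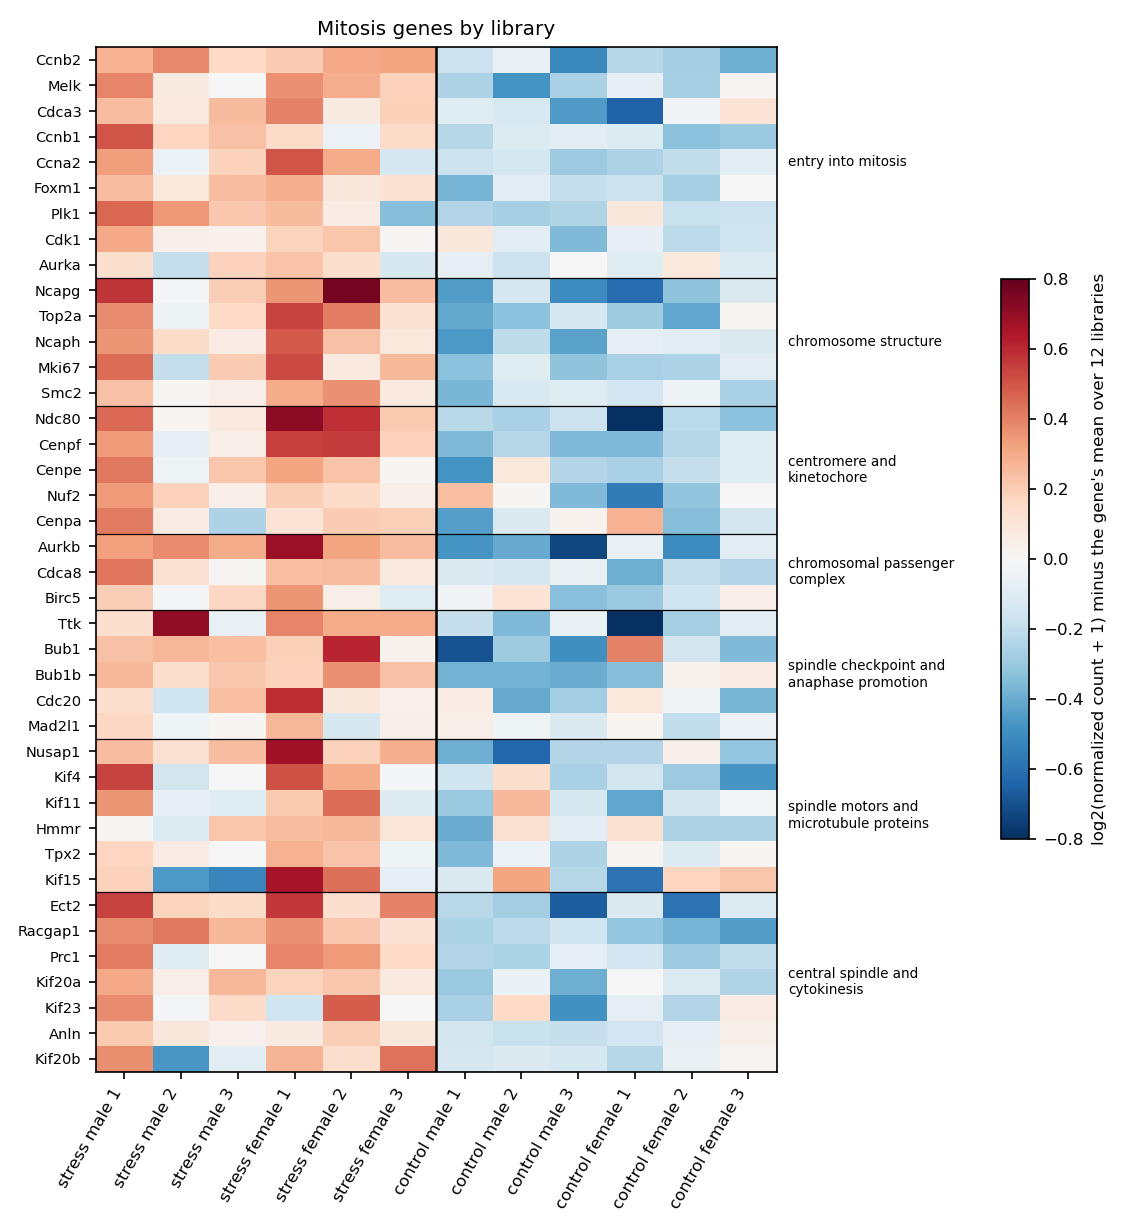
Each row is 1 of the 40 mitosis genes, grouped by role, and each column is 1 library, with 6 stress libraries left of the line and 6 control libraries right of it. Colour gives log2(normalized count + 1) minus the gene's mean over the 12 libraries; red cells gather on the stress side, and stress female replicate 1 held the highest value of 16 genes.

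Of the 9 genes that start mitosis 8 rose. Ccnb2, a B-type cyclin that activates the mitotic kinase Cdk1, stood at 155, 167 and 143 normalized counts in stress males and 147, 158 and 159 in stress females. Its values were 113, 123 and 88.8 in control males and 109, 105 and 96.9 in control females, so the groups did not overlap. Its log2 fold change was 0.55 ± 0.10 (SE, limma adjusted p = 0.00105), the lowest p among the genes of mitotic entry.

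Ccnb1, the other B-type cyclin, averaged 180 ± 23.2 normalized counts in stress and 137 ± 10.1 in control libraries (SD, n = 6 each), again without overlap. Foxm1, the transcription factor that drives late cell cycle genes, averaged 323 ± 20.7 in stress and 251 ± 23.2 in control libraries and rose by 0.36 ± 0.08 on the log2 scale (limma adjusted p = 0.00322). Ccna2, the A-type cyclin, Melk, a kinase of dividing cells, and Cdca3, a mitotic entry factor, rose by 0.38, 0.43 and 0.41.

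The kinases at the centre of entry had smaller fold changes. Cdk1 was at 253, 210 and 209 in stress males and 232, 239 and 206 in stress females, against 218, 193 and 160 in control males and 195, 177 and 184 in control females. The highest control male lay above 3 of the stress libraries, and the log2 fold change was 0.26 ± 0.09 (limma adjusted p = 0.0484). The polo-like kinase Plk1 ran from 98.6 to 172 in stress (median 147) and from 104 to 133 in control libraries (median 108), a log2 fold change of 0.33 ± 0.11 (limma adjusted p = 0.0392). Aurka, the kinase of the spindle poles, averaged 175 ± 20.6 in stress and 160 ± 10.2 in control libraries, with a log2 fold change of 0.12 ± 0.10 that did not pass (limma adjusted p = 0.400). The Cdk1 call depended on the library set: it was lost in 9 of the 12 fits that left out 1 library (kept without stress male replicate 2, stress female replicate 3 or control male replicate 1), with an adjusted p of up to 0.122. Plk1 also lost its call in 9 of 12 (kept without stress male replicate 3, stress female replicate 3 or control female replicate 1; adjusted p up to 0.109). Cdca3 lost it in 5, namely without stress male replicates 1 or 3, stress female replicate 1, control male replicate 3 or control female replicate 1 (adjusted p up to 0.0690).

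**Figure D2:**
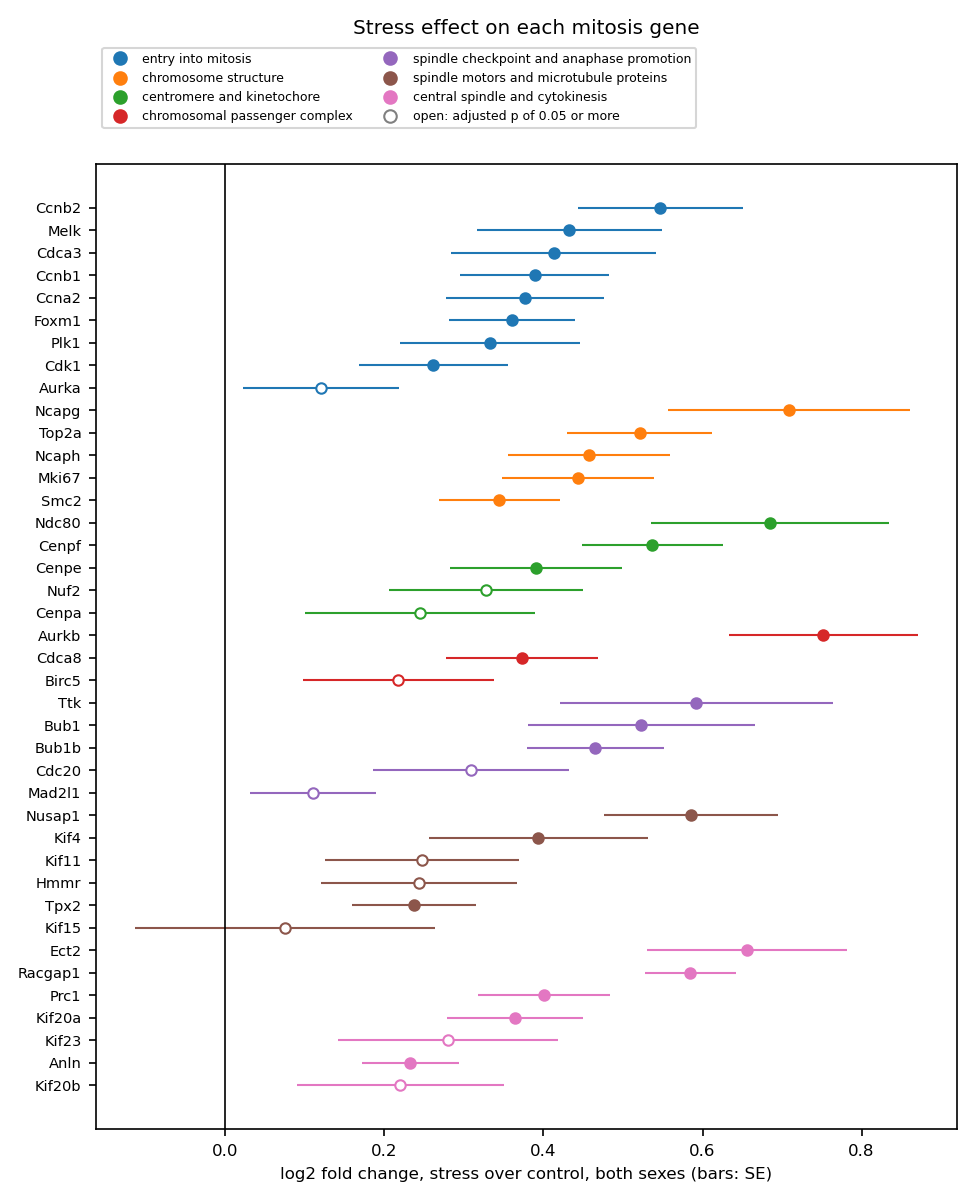
Points give each gene's log2 fold change of stress over control in both sexes, bars its standard error, colours its role; filled points passed the test. All 40 points lie above 0, from 0.07 for Kif15 to 0.75 for Aurkb.

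All 5 genes of chromosome structure rose. Top2a, the topoisomerase that untangles replicated DNA, was at 918, 687 and 787 normalized counts in stress males and 1025, 936 and 767 in stress females. In control males it was at 531, 563 and 639 and in control females at 579, 529 and 712. The stress values were higher except that stress male replicate 2 lay below control female replicate 3, and the log2 fold change was 0.52 ± 0.09 (limma adjusted p = 0.000538). Mki67, the Ki-67 antigen that coats mitotic chromosomes and marks proliferating cells in tissue sections, was at 1305, 837 and 1098 in stress males and 1379, 1010 and 1144 in stress females. It was at 760, 895 and 765 in control males and 796, 806 and 902 in control females. Stress male replicate 2 was the one stress library inside the control range, and Mki67 rose by 0.44 ± 0.10 (limma adjusted p = 0.00279).

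The condensin subunits, which compact chromosomes, did not overlap between treatments. Ncapg averaged 94.2 ± 18.7 in stress and 56.8 ± 8.12 in control libraries, 1.63-fold. Ncaph averaged 163 ± 19.6 in stress and 118 ± 13.8 in control libraries, and Smc2 443 ± 44.8 in stress and 348 ± 28.1 in control libraries. Their log2 fold changes were 0.71 ± 0.15, 0.46 ± 0.10 and 0.34 ± 0.08.

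At the centromere and kinetochore, where chromosomes meet the spindle, 3 of 5 genes rose. Cenpf, a large protein of the outer kinetochore, ran from 322 to 500 normalized counts in stress (median 408) and from 265 to 317 in control libraries (median 277), and rose by 0.54 ± 0.09 (limma adjusted p = 0.000319). Ndc80, which grips the microtubule, averaged 91.9 ± 18.4 in stress and 56.5 ± 8.87 in control libraries and rose by 0.68 ± 0.15. Its partner in the same complex, Nuf2, averaged 151 ± 11.5 in stress and 122 ± 25.1 in control libraries and missed the threshold (0.33 ± 0.12, limma adjusted p = 0.0588). The kinetochore motor Cenpe rose by 0.39 ± 0.11, and the centromeric histone Cenpa, with 78.0 to 124 normalized counts in stress and 67.8 to 113 in control libraries, was at 0.24 ± 0.14 (limma adjusted p = 0.232). With control male replicate 1 left out Nuf2 passed (limma adjusted p = 0.0317), as it did with control female replicate 3 left out (0.0277).

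Aurkb had the largest fold change of the 40. It is the kinase of the chromosomal passenger complex, which corrects faulty attachments and later directs cytokinesis. Aurkb was at 144, 150 and 141 in stress males and 186, 143 and 137 in stress females, against 82.5, 86.4 and 69.0 in control males and 110, 80.8 and 108 in control females. Every stress library exceeded every control library, with a log2 fold change of 0.75 ± 0.12 (1.68-fold, limma adjusted p = 0.000231). The other members of the complex had smaller fold changes: Cdca8 (borealin) rose by 0.37 ± 0.10, and Birc5 (survivin) was at 0.22 ± 0.12 (limma adjusted p = 0.200), with 122 ± 14.0 normalized counts in stress and 105 ± 13.5 in control libraries.

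Of the spindle checkpoint, which holds cells until all chromosomes are attached, 3 of 5 genes rose. Bub1b was at 248, 228 and 241 in stress males and 236, 267 and 243 in stress females, against 159, 159 and 157 in control males and 163, 211 and 217 in control females. The groups were apart in every library, with a log2 fold change of 0.47 ± 0.09 (limma adjusted p = 0.000912). The checkpoint kinases Ttk and Bub1 rose by 0.59 ± 0.17 and 0.52 ± 0.14 with wider spread, and Ttk had the lowest counts of the 40, at 69.4 ± 12.9 in stress and 45.8 ± 8.19 in control libraries. Mad2l1, the inhibitor of Cdc20, averaged 318 ± 31.4 in stress and 294 ± 17.6 in control libraries (0.11 ± 0.08, limma adjusted p = 0.330). Cdc20, the activator of the anaphase-promoting complex, was at 0.31 ± 0.12 (limma adjusted p = 0.0774). It passed with stress male replicate 2 or control male replicate 1 left out (limma adjusted p = 0.0434 each) and with library weights (0.0325).

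Of the spindle motors and microtubule proteins 3 of 6 rose. Nusap1, which bundles spindle microtubules, averaged 196 ± 28.8 in stress and 131 ± 20.0 in control libraries without overlap and rose by 0.59 ± 0.11 (limma adjusted p = 0.000965). Kif4, a motor on chromosome arms, rose by 0.39 ± 0.14 (limma adjusted p = 0.0449), and Tpx2, the activator of Aurka, by 0.24 ± 0.08 (limma adjusted p = 0.0344). Kif11, which pushes the spindle poles apart, was at 0.25 ± 0.12 and Hmmr, a spindle assembly protein, at 0.24 ± 0.12, with limma adjusted p of 0.152 and 0.162. Kif15, a motor that can stand in for Kif11, was at 88.2, 56.2 and 53.4 in stress males and 123, 106 and 73.6 in stress females, against 71.4, 96.7 and 66.1 in control males and 51.1, 87.5 and 90.7 in control females. Stress female replicates 1 and 2 lay above every control library and control female replicate 1 below every stress library, while the rest overlapped (0.07 ± 0.19, limma adjusted p = 0.810). Kif4 and Tpx2 each lost their call in 7 of 12 fits with 1 library left out, in each case without stress male replicate 1, stress female replicates 1 or 2, control male replicates 1 or 3, or control female replicates 2 or 3 (adjusted p up to 0.117 and 0.0897).

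**Figure D3:**
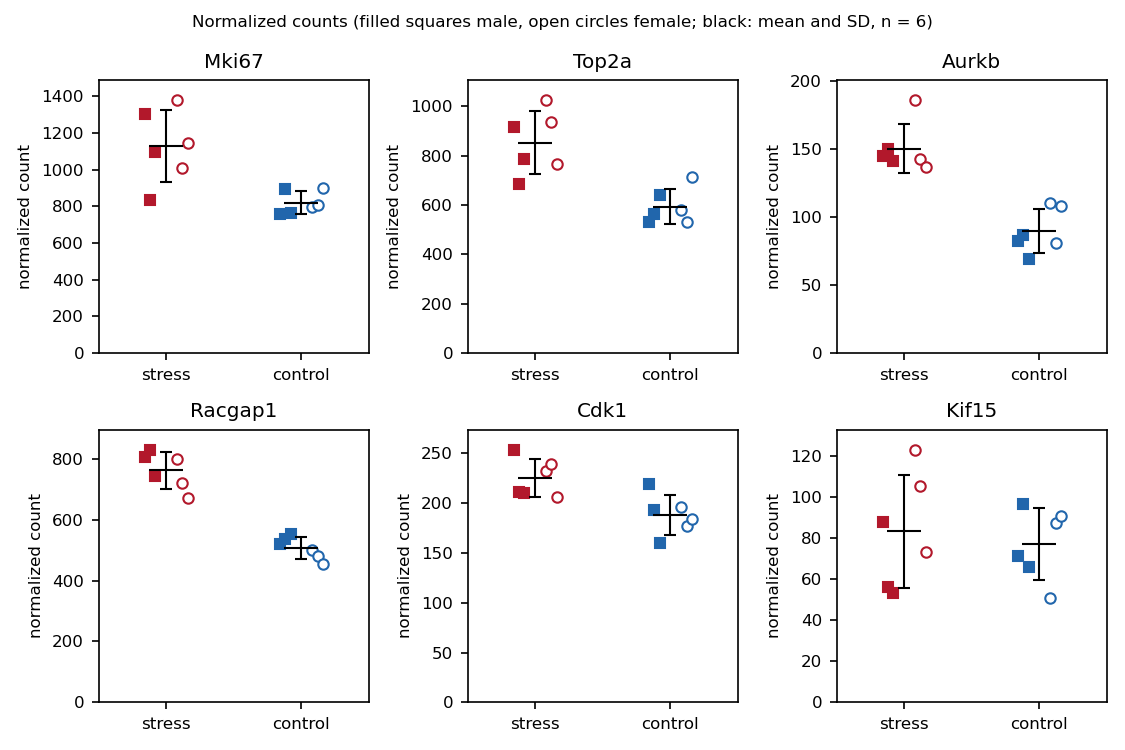
Normalized counts of 6 genes in each library, with squares for males and circles for females, and the mean and SD over 6 libraries in black. Aurkb and Racgap1 are apart between stress and control, and Mki67, Top2a, Cdk1 and Kif15 overlap in part.

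For the last step, the central spindle and cytokinesis, 5 of 7 genes rose, and here stood the lowest p of the 40. Racgap1, a subunit of the centralspindlin complex, was at 806, 830 and 744 in stress males and 799, 720 and 671 in stress females. Control males were at 519, 535 and 554 and control females at 500, 480 and 454. Every stress library lay above every control library, and the log2 fold change was 0.58 ± 0.06 (limma adjusted p = 2.90e-06). Ect2, the exchange factor that Racgap1 recruits for cytokinesis, averaged 191 ± 26.9 in stress and 121 ± 19.5 in control libraries, also without overlap, and rose by 0.66 ± 0.13.

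Prc1, which crosslinks the midzone microtubules, Kif20a, the motor that carries the passenger complex there, and Anln, a scaffold of the contractile ring, rose by 0.40, 0.36 and 0.23. Kif23, the motor subunit of centralspindlin, averaged 137 ± 24.1 in stress and 112 ± 18.3 in control libraries and did not pass (0.28 ± 0.14, limma adjusted p = 0.151). Kif20b, another cytokinesis motor, had 81.8 to 154 normalized counts in stress and 96.6 to 115 in control libraries and was at 0.22 ± 0.13 (limma adjusted p = 0.234). Prc1 shares 21810 bases with a gene on the other strand, Rccd1, and the strand setting of the counting is not given in the sources used here. Ccna2, Ncapg, Cdca8, Cdc20, Kif4, Nusap1 and Kif20a also overlap an opposite-strand gene, by 53 to 3366 bases. These overlaps are of whole gene spans, introns included. The values of these genes are uncertain by an amount that was not tested.

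Per kilobase of merged exons (GENCODE M21, the same build), levels differed widely among the 40. Cdc20 and Mki67 were high, at 119 and 112 normalized counts per kilobase in stress and 95.3 and 81.6 in control libraries. Kif15 was lowest, at 7.56 in stress and 7.01 in control libraries. The lengths count every annotated exon, so the order is approximate. Racgap1 lies on chromosome 15 from 99620496 to 99651656 and Aurkb on chromosome 11 from 69045647 to 69051664. Mki67 lies on chromosome 7 from 135689784 to 135716361, and Top2a on chromosome 11 from 98992943 to 99024189. The 40 genes are spread over many chromosomes, and all are annotated as protein-coding.

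The promoter elements occurred both in genes that rose and in genes that did not pass. TTTGAA was found in 18 of the 24 risen genes with a promoter (75%) and in 8 of the 11 others (72.7%), and CCAAT in 19 of 24 (79.2%) and 6 of 11 (54.5%). Of the sequences printed above, those of Ccnb2, Top2a, Mki67 and Ect2 belong to genes with log2 fold changes of 0.44 to 0.66, whereas Cdk1 and Cdc20, with the same elements, were at 0.26 and 0.31. Nusap1, which rose by 0.59, held neither TTTGAA nor CCAAT in its window.

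Treatment effects were then read in each sex alone. In males 15 of the 40 rose and none fell, where 7.71% of tested genes rose and 8.11% fell. In females 13 rose and none fell, where 4.96% of tested genes rose and 6.07% fell. Of the 40, 7 passed in both sexes, 8 in males only, 6 in females only and 19 in neither. Racgap1 was at 0.56 ± 0.08 in males and 0.61 ± 0.08 in females, Aurkb at 0.87 ± 0.17 in males and 0.63 ± 0.17 in females, and Ect2 at 0.68 ± 0.18 in males and 0.64 ± 0.18 in females. Every stress male library lay above every control male library for 23 genes (16.4% of tested genes), and every stress female library above every control female library for 26 genes (14.8% of tested genes). These counts rest on few libraries. In males 6 genes passed without stress male replicate 1, 9 without stress male replicate 3, 7 without control male replicate 1 and 6 without control male replicate 3. For females the count was 4 with stress female replicate 1 left out, 8 with control female replicate 1 left out and 5 with control female replicate 2 left out.

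**Figure D4:**
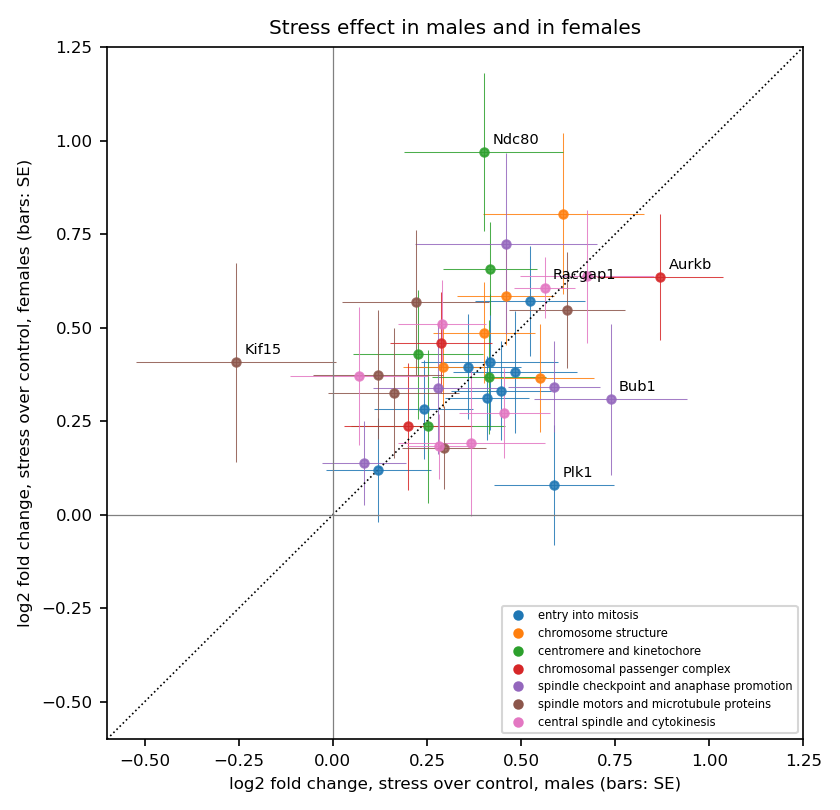
Each point is a mitosis gene, with its log2 fold change of stress over control in males on the x axis, in females on the y axis, and SE bars; the dotted line marks equal effects. Of the 40 points 39 are above 0 on both axes, and Kif15 is at -0.26 in males and 0.41 in females.

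Between the sexes themselves no difference in the stress effect passed (limma, 0 of 40 and 0% of tested genes; 1 of the 40 and 1260 of the 15194 had an unadjusted p under 0.05). That gene was Plk1, at 0.59 ± 0.16 in males and 0.08 ± 0.16 in females, a difference of 0.51 ± 0.23 (limma adjusted p = 0.587). Kif15 had the largest difference, -0.67 ± 0.38, male effect minus female effect (limma adjusted p = 0.648), and Ndc80 was at -0.57 ± 0.30 (limma adjusted p = 0.626). The effect was larger in males for 18 genes and larger in females for 22. No mitosis gene differed between males and females over both treatments either (limma, 0 of 40, with Cenpf and Racgap1 at an unadjusted p under 0.05), where 0.0395% of tested genes were higher and 0.0592% lower in males.

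A score per library, the mean of log2(normalized count + 1) over the 40 genes after each gene's own mean was taken away, put every stress library above every control library. Stress males were at 0.32, 0.05 and 0.10 and stress females at 0.35, 0.26 and 0.10, against -0.25, -0.14 and -0.27 in control males and -0.21, -0.20 and -0.13 in control females. The stress group was the more spread, at 0.20 ± 0.13 against -0.20 ± 0.06 in control (SD, n = 6 each). As a share of each library's summed counts the 40 genes took 0.0421% to 0.0549% in stress and 0.0344% to 0.0381% in control libraries. The score is a description of these libraries, since its genes were chosen with results known. Stress female replicate 1 held the highest value of 16 genes, stress male replicate 1 of 12 and stress female replicate 2 of 8. No control library held the highest value of any gene.

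**Figure D5:**
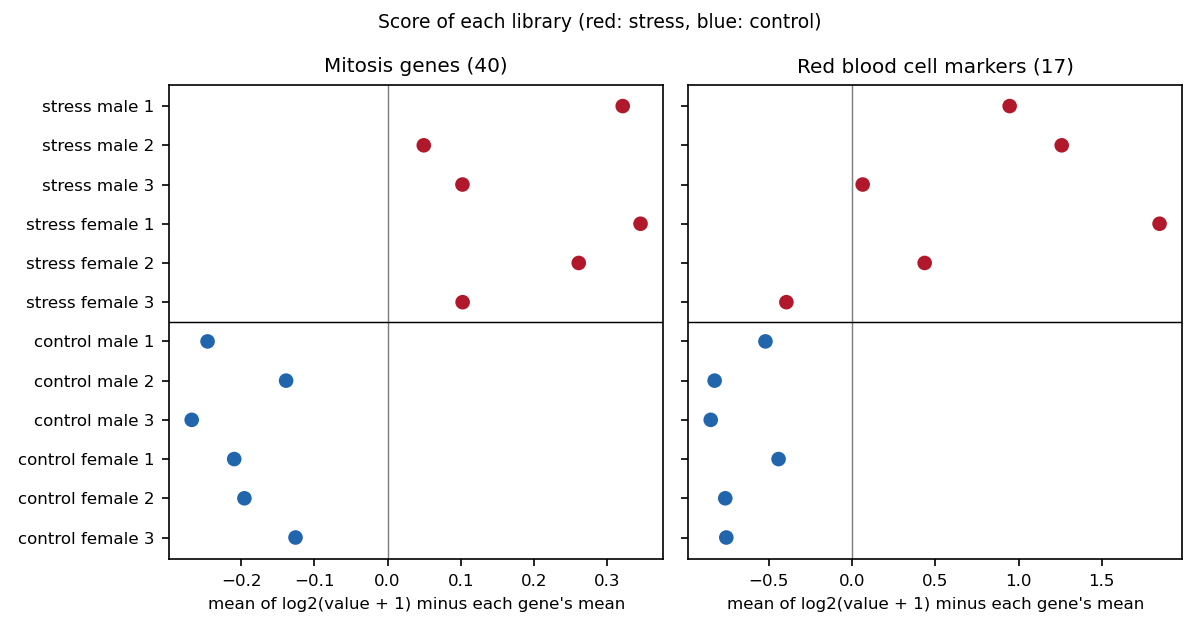
Left, the mitosis score of each library; right, the same kind of score over 17 red blood cell markers; stress libraries are red and above the line, control libraries blue and below it. Both scores are higher in the stress libraries, and stress female replicate 1 is the highest library on both. Stress male replicate 2 is the lowest stress library on the left and the second highest on the right, and stress female replicate 3 is the lowest stress library on the right.

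Most markers of red blood cells and their precursors were also higher after limited bedding. Of 17 markers measured 15 rose and none fell, where 12.8% of tested genes rose and 13.4% fell. Their median was 1.58 on the log2 scale. Their summed level was 8478 to 25281 normalized counts in stress and 5164 to 10451 in control libraries, and Hba-a2, Hbb-bs, Epb42, Hemgn and Rhag were listed at 0 in at least 1 library. The anion exchanger Slc4a1 averaged 213 ± 114 in stress and 44.4 ± 15.3 in control libraries, and Hbb-bt, a globin gene with near-identical copies, 823 ± 263 in stress and 346 ± 72.0 in control libraries. The red blood cell score was 0.95, 1.26 and 0.06 in stress males and 1.85, 0.44 and -0.40 in stress females, against -0.52, -0.83 and -0.85 in control males and -0.44, -0.76 and -0.76 in control females. The score averages log2 values, so a marker listed at 0 pulled the score of that library down. Hba-a2 ran from 0 to 3831 in stress libraries. Its log2 fold change was -0.23, although its mean was 2204 in stress and 978 in control libraries.

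With this score as a covariate 2 of the 40 genes passed, Racgap1 (0.43 ± 0.08, limma adjusted p = 0.00577) and Bub1b (0.54 ± 0.14, limma adjusted p = 0.0319), where 3.46% of tested genes were higher and 3.53% lower in the same fit. The log2 fold change stayed positive for 38 of 40, its median was 0.31 in place of 0.38, and the median standard error was 0.17 in place of 0.11. An unadjusted p under 0.05 remained for 16 of the 40, against 31 without the covariate. Every stress library had a higher red blood cell score than every control library, so this fit cannot fully separate the score from treatment. The part of red blood cells in the rise of mitosis genes was not tested.

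Other cell types were read beside these, where 12.8% of tested genes rose and 13.4% fell over both sexes. Of 9 measured granulocyte precursor markers 2 rose, Mpo and Prtn3, and none fell. The log2 fold change was positive for 5 of the 9 and negative for 4, with a median of 0.03. The 9 markers summed to 241 to 338 in stress and 197 to 310 in control libraries. Mpo was listed at 0 in at least 1 control library. With the score of the 9 markers as a covariate 22 mitosis genes passed, all higher, where 9.12% of tested genes were higher and 9.61% lower. That score averages markers that moved in opposite directions. Macrophage markers had 1 of 10 higher, Fcgr1, and none lower, with a summed level of 2323 to 3002 in stress and 2193 to 2695 in control libraries. B cell precursor markers had none of 3 tested called (2 had an unadjusted p under 0.05).

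Markers of satellite glia, fibroblasts and cartilage were lower in the stress libraries, beside the 12.8% of tested genes that rose and the 13.4% that fell. Among 10 satellite glia markers 5 fell and 1 rose, with Apoe, a lipid carrier, at -0.74 and the endothelin receptor Ednrb at -0.65. For 10 fibroblast markers the count was 5 lower and 1 higher, with the matrix proteins Lum at -1.55 and Dcn at -0.44. Cartilage markers had 7 of 10 lower and 2 higher, with the collagens Col2a1 at -1.51 and Col11a1 at -0.54. The other lists had counts nearer to those shares. Of 12 Schwann cell markers 1 fell, Sox10 (-0.36), and of 11 endothelium and pericyte markers 2 fell, Rgs5 (-0.29) and Pdgfrb (-0.18). Sensory neuron markers had 3 of 12 higher and 3 lower, with positive fold changes for 6 of 12 and a median of 0.01, and the pair of lowest p, the neurofilament Nefl (-0.41) and the synaptic protein Snap25 (-0.38), were among those that fell.

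The summed level of satellite glia markers was 46107 to 52356 in stress and 64068 to 71810 in control libraries. That of fibroblast markers was 80773 to 117472 in stress and 123747 to 131816 in control libraries, and that of cartilage markers 3708 to 3988 in stress and 5200 to 5828 in control libraries. Endothelium and pericyte markers summed to 8824 to 9166 in stress and 9760 to 11134 in control libraries. All of these sums, and that of sensory neuron markers, were lower in every stress library. Schwann cell markers overlapped, at 323412 to 436648 in stress and 304127 to 468635 in control libraries. A sum follows its most abundant markers: Apoe averaged 23146 in stress and 38474 in control libraries, and Rgs5 averaged 4103 and 5022. As a mean over markers, the endothelium and pericyte score overlapped, at -0.15 to 0.07 in stress and -0.11 to 0.13 in control libraries. The sensory neuron score overlapped too, whereas those of satellite glia, fibroblasts and cartilage did not. The part of these other cell types in the rise of mitosis genes was not tested.

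Other genes of the cell cycle were counted from lists, beside the 12.8% of tested genes that rose and the 13.4% that fell. Among 80 further mitotic genes 26 rose and 1 fell, and the median was 0.29 on the log2 scale. The rises of lowest p were Cdc25b, the phosphatase that activates Cdk1 (0.47 ± 0.06), Mad1l1, a checkpoint protein (0.32 ± 0.05), and Ncapd2, a condensin subunit (0.33 ± 0.06). The fall was Zwint, named for the kinetochore but abundant in these ganglia at 10109 ± 747 normalized counts in stress and 13475 ± 375 in control libraries (-0.42 ± 0.04). DNA replication genes, the step before mitosis, had 18 of 42 higher and none lower, with a median of 0.27. Pole, the catalytic subunit of a replicative polymerase, rose by 0.69 ± 0.09, Rrm1 of ribonucleotide reductase by 0.41 ± 0.06 and the chromatin assembly factor Chaf1b by 0.67 ± 0.12. Promoters of replication genes held TTTGAA in 5 of 34 (14.7%) and an E2F form in 18 of 34 (52.9%).

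Among earlier regulators the counts lay near the 12.8% of tested genes that rose and the 13.4% that fell. Of 15 G1 cyclins and regulators of S-phase entry 2 rose, the transcription factors E2f2 (0.46 ± 0.11) and E2f7 (0.56 ± 0.18), and none fell, with a median of 0.13. Cell cycle inhibitors and genes of quiescence had 4 of 22 higher, 4 lower and a median of 0.02. The inhibitor Cdkn1c averaged 1365 ± 473 normalized counts in stress and 819 ± 89.4 in control libraries and rose by 0.69 ± 0.13, and Cdkn1a, the p53-induced inhibitor, rose by 0.33 ± 0.06. Rbl1, a pocket protein, rose by 0.35 ± 0.10. Cdkn1b fell by 0.27 to 1373 ± 176 in stress, against 1647 ± 89.1 in control libraries, and the repressor E2f4 fell by 0.25. Cdkn2a fell by 1.41 at low counts, with 8.56 ± 4.41 in stress and 24.3 ± 9.61 in control libraries.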

How the data were processed

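RNA of 12 ganglion libraries, made with a strand-keeping kit per the labels' protocols, was counted by gene. STAR, Salmon, DESeq2 and mm10 are named in the submitters' processing notes. The deposited values are a normalized signal, gene counts that the authors scaled per library, with a deposited log2 fold change per gene, a test score and p-values. Low values lay within 0.1 of a multiple of 1 step in 61.6% to 86.6% of cases in 11 libraries, and 26.1% in stress female replicate 2, so reads were not recovered and no count model was fitted. This share was lower in every stress library (up to 66.3%) than in every control library (72.8% or more).

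A linear model of log2(value + 1) was fitted in limma 3.58.1 (R 4.3.3) with 4 group means, a trended prior variance and Benjamini-Hochberg adjustment over 15194 genes (128 removed). Fold changes on this scale understate the change of low genes. Tested on simulated data, the fit recovered the larger known changes and missed most of the smallest. Genes and lists were chosen with earlier results of these data known. Every member is named. The rule asks for fuller values, by library or as a range or mean, for the members of lowest and highest p in a role and for Mki67, Top2a, Cdk1, Ccnb1, Plk1, Aurkb and Foxm1; means of Ncapg, Smc2, Ndc80, Nuf2, Ttk, Ect2 and Kif23 were added after their values were seen. From each other pathway list up to 3 called genes of lowest p in each direction are named, and up to 2 from a cell type list. Alternatives covered scaling, pseudocount, filter, prior variance, library weights, replicate number, blood scores and each library left out. RefSeq and GENCODE M21 annotation are of the same build.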

Additional observations from a re-analysis of the deposited data

Results flagged for a closer look

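In 5 of 82 sets of 6 libraries (each gene and the score, within a treatment) 1 library stood far from the rest by Dixon's criterion, which chance gives about 1 time in 20. Stress female replicate 1 was high for Aurkb (186 normalized counts) and for Nusap1 (253). Stress female replicate 2 was high for Bub1 (159). Control female replicate 1 was high for Plk1 (133) and low for Ndc80 (39.0). All 5 genes kept their call over both sexes (limma) when the library in question was left out. No difference between the sexes in the stress effect passed.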

How the results depend on the processing

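Of the 29 calls over both sexes, 24 were kept in all 12 fits that left out 1 library and 21 under every alternative but the red blood cell score. Leaving out a library gave 24 to 29 mitosis genes over both sexes, 6 to 16 in males, 4 to 14 in females, and 3155 to 3959 genes in all (3984 with every library). The red blood cell score gave 2 over both sexes, 2 in males, 1 in females and 1063 genes in all. The granulocyte precursor score gave 6 in females. The largest shift of the median of all genes by a scaling was to 0.0164. Cdk1 lost its call with TMM scaling (limma adjusted p = 0.0510) and, like Kif4 (0.0689), with 1 prior variance (0.0514). Signs turned for Mad2l1 (-0.0323) and Kif15 (-0.2345) with the red blood cell score, and for Kif15 without stress female replicate 1 (-0.0050), stress male replicate 1 (-0.0379) or control female replicate 1 (-0.0568), with Kif15 at up to 0.1792 (without stress female replicate 3) in the other such fits. The cause was not tested. Same-numbered libraries of a sex had correlated deviations of -0.02 to 0.15, so the numbers are not taken as pairs. With the replicate block 31 mitosis genes passed over both sexes (adding Cdc20, limma adjusted p = 0.0273, and Nuf2, 0.0480), 15 in males and 12 in females; sex itself cannot be compared under it.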
